A study of Mus musculus with 15 samples.

Results

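Perigonadal fat of mice that had lost weight was compared with that of mice that had stayed obese, on every gene that passed a filter on low counts. The comparison rests on 9 of the 15 libraries of the series, 4 of weight loss mice and 5 of obese mice, grouped by their labels. Another weight loss library was left out for its low count, given below. All differences are given as weight loss minus obese. All mice were C57BL/6, an inbred laboratory strain, and were 14 weeks old at collection; no transgene or deletion is named in the labels. From 8 weeks of age obese mice received a diet labelled as 60% high fat. Weight loss mice received that diet for 5 weeks and then chow for 1 week. A further 5 libraries of lean mice, kept on chow throughout, entered the model so that all groups share 1 estimate of the spread, and their levels are given beside the results. The fat pads were frozen, RNA was purified through a caesium chloride gradient, and polyadenylated RNA was selected on oligo-dT before sequencing. The design text of the series calls the samples statistically independent. It does not say whether each came from a single animal, so p-values measure the spread between these samples.

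White fat stores surplus energy as triglyceride and releases it as fatty acids. During high-fat feeding the perigonadal depot enlarges: adipocytes swell and secrete more leptin, precursor and immune cells divide, and the collagen mesh around the cells is remodelled. Returning mice to chow reverses the energy balance within days, and the adipocyte then switches between building and breaking down lipid under the control of insulin, catecholamines and the circadian clock of the tissue. In a bulk sample fewer cells of a type and less RNA per cell cannot be told apart.

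The 9 libraries held between 17880299 and 33807887 counts each. A further weight loss library, replicate 5, held 230 counts and was left out. Levels are CPM, each count as a share of its library's total after TMM scaling. The 8 marker genes fixed for fat were present in all 9 libraries: Fabp4, a fatty acid carrier, stood at 6454 to 8741 CPM, Adipoq, the adiponectin gene, at 1810 to 2782, Plin1, the lipid droplet coat protein perilipin, at 352 to 636, and Pparg, the master regulator of fat cells, at 127 to 235. Lpl, Lipe, Cidec and Cebpa did not fall below 11680, 1794, 2561 and 341 CPM. Libraries of the obese group differed in transcripts of the epididymis, the duct that lies against this fat pad in males. The summed level of 25 epididymis markers was 15.9, 10080, 606, 3956 and 7902 CPM in obese replicates 1 to 5, and 8.58, 12.8, 10.2 and 108 CPM in weight loss replicates 1 to 4. Lean replicate 1 held 4175 CPM. Obese replicates 2, 4 and 5 and lean replicate 1 were therefore left out in one alternative, which leaves 2 obese libraries. Obese 3 stayed in, and the median log2 difference of the tested markers was still -4.24 in that fit. In another alternative the mean log2 CPM of the tested markers in each library entered the model as a covariate. That mean was 3.31 in obese 3 and 2.93 in obese 4, the reverse of their order by sum. Results of both alternatives are given below.

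**Figure D1:**
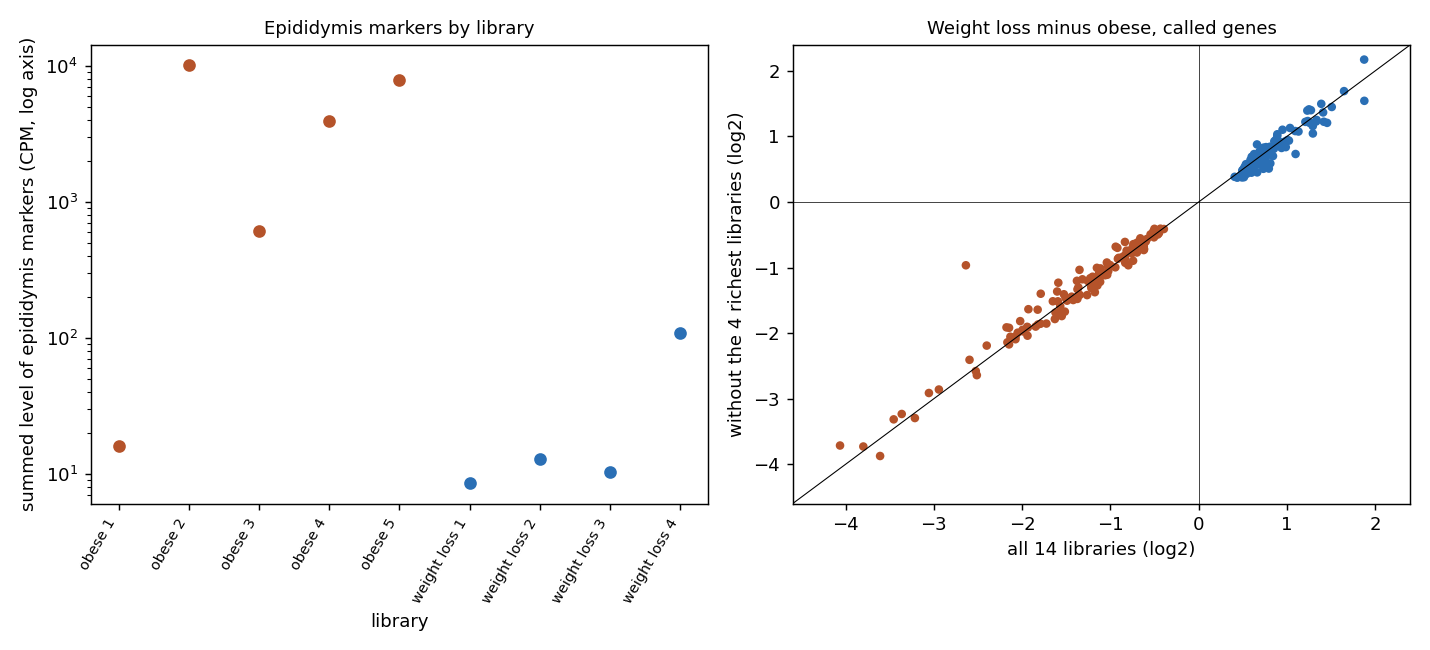
Left, the summed level of epididymis markers (CPM, log axis) in each obese and weight loss library. Right, the log2 difference of each of the 246 called genes with all 14 libraries (horizontal axis) and without the 4 libraries richest in these markers (vertical axis), with the line of equal values. All 246 points keep their sign, which was largely fixed by the choice of these genes on libraries that both fits share. Hpdl lies farthest from the line.

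Of 15208 genes tested, edgeR's quasi-likelihood test called 246 at a Benjamini-Hochberg adjusted p of 0.05, which is 1.62% of all genes. Levels of 112 genes rose (0.736%) and those of 134 fell (0.881%). Counts of called members in the gene lists below are to be set against these shares, and 1 call or none in a list is often near them. The falls were the larger changes: 84 genes fell by more than 2-fold and 25 rose by more than 2-fold, and the median called gene fell 2.25-fold or rose 1.67-fold. The median log2 difference of all genes tested was 0.02. Libraries of both groups did not overlap at all for 238 of the 246 called genes. Over all genes this held for 514 genes higher after weight loss (3.38%) and 498 lower (3.27%). By type, 238 called genes were protein-coding, 6 were long noncoding RNAs and 2 were transcribed pseudogenes. A tested neighbour overlapped 42 of the called genes, and since the strand of counting is not given in the sources used here, reads of such pairs cannot be told apart. Besides pairs given with their genes, this holds for Prc1 with Rccd1, Tpi1 with Spsb2, Acsm3 with Eri2, Cabp4 with Gpr152 and Slc48a1 with Hdac7. Similar copies such as Ces1d and Ces1f or Gstt1 and Gstt2 may also share reads.

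**Figure D2:**
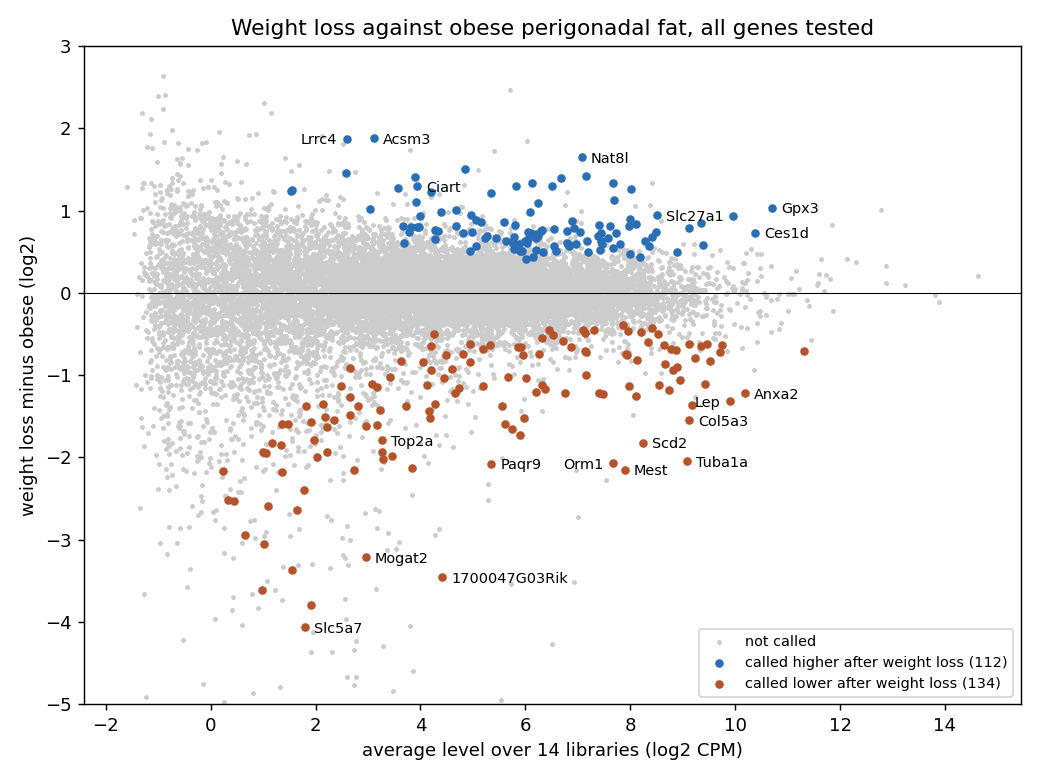
Each point is a gene, placed by its average level (log2 CPM, horizontal axis) and its log2 difference between weight loss and obese fat (vertical axis); 83 genes beyond the vertical range are not drawn and none of them was called. The 134 called falls reach -4.06 and the 112 called rises reach 1.88 on the log2 scale.

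Without the 4 libraries with the highest summed epididymis markers 20 genes were called, 18 lower and 2 higher. With the mean log2 marker level as a covariate 37 were called, 31 lower and 6 higher. All of these were among the 246. Every one of the 246 kept its direction in both fits, and the medians of the called genes were 0.72 and -1.17 (log2) in the first and 0.68 and -1.09 in the second, against 0.74 and -1.17 in the full fit. The first fit keeps obese 1 and 3, which already lay outside the weight loss range on the called side for 246 and 244 of these genes. Kept directions there were thus largely fixed by how the genes were chosen. The effect of epididymis transcripts on the calls was not tested by these directions and medians. Hpdl alone moved by more than 1.5-fold without the 4 libraries, and 3 called genes did so with the covariate: Slc5a7, from -4.06 to -3.20 on the log2 scale, Rnase2a, from -3.80 to -4.40, and Hpdl, from -2.64 to -1.96. A set of 18 genes was called in both of these fits and also with each of the 14 libraries left out in turn. Of these, Lrrc4 and Nat8l rose, and 1700047G03Rik, Mogat2, Paqr9, Tuba1a, Top2a, Oxtr, Cdkn1a, Col5a3, Igfals, Mki67, Gpc1, Lbp, Anxa2, Olfm1, Col15a1 and Tspan17 fell. Every other called gene lost its call in at least 1 of the 2 fits. Single libraries are named below by group and number, and levels in single libraries follow the order of these numbers.

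**Figure D3:**
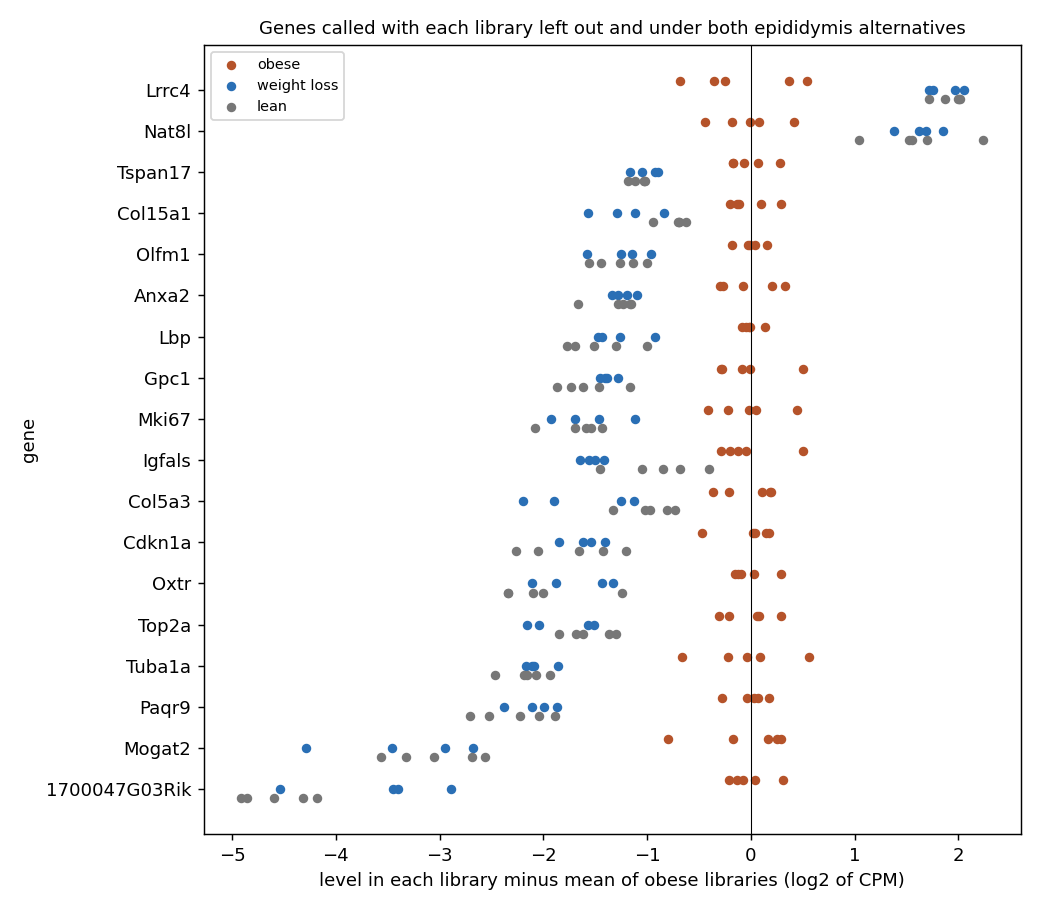
Level of the 18 genes called in every leave-one-out fit and under both epididymis alternatives, as log2 CPM of each library minus the log2 mean of the obese libraries (horizontal axis). Obese and weight loss points do not overlap for any of the 18; lean libraries are drawn for reference.

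Leptin, the hormone through which fat reports its stores to the brain, fell to a level near that of lean fat. Lep (Entrez ID 16846, chromosome 6, 29060221 to 29073876 in RefSeq, on mm10, as for the coordinates that follow) stood at 1449, 1478, 1404, 1785 and 1742 CPM in the obese libraries and at 649, 793, 584 and 498 CPM after weight loss. The lowest obese library was well above the highest weight loss library. The fall was 2.49-fold, a log2 difference of -1.32 ± 0.17 (edgeR quasi-likelihood test, adjusted p = 0.00133), and lean fat stood at 601 ± 125 CPM (SD, n = 5). The call held with each library left out and with the epididymis covariate, and was lost without the 4 epididymis-rich libraries.

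Of 21 adipokine genes tested, 2 fell and 1 rose, with a median log2 difference of -0.27. Besides Lep, Npr3, the receptor that clears natriuretic peptides, fell from 904, 819.5, 724, 785 and 685 CPM to 409, 518, 389.9 and 186 CPM (log2 -1.06 ± 0.23, adjusted p = 0.027). The gene that rose was Crispld2, a gene for a secreted protein that is named in the title of the series (Entrez ID 78892, chromosome 8, 119992438 to 120052794 on mm10). Its levels were 50.1, 55.7, 43.5, 49.8 and 41.8 CPM in the obese libraries and 74.4, 66.0, 78.1 and 60.8 CPM after weight loss, a log2 difference of 0.54 ± 0.11 (adjusted p = 0.025). The groups did not overlap, and the exact two-sided permutation test gave p = 0.00794, the smallest that its 126 arrangements allow. Groups without overlap give a p at or near this limit, so these are not separate support, and 3.38% of all genes were higher without overlap. Crispld2 was tested because the title names it, and it may have been picked from these same data. Its edgeR call was lost without the 4 epididymis-rich libraries, with the covariate and with the replicate number as a block (adjusted p = 0.388, 0.293 and 0.0713). Adipoq did not pass, with 2177 ± 362 CPM in the obese libraries and 2474 ± 230.5 CPM after weight loss (a log2 difference of 0.18 ± 0.13, adjusted p = 0.579). Sfrp5, a secreted inhibitor of Wnt signalling, did not pass either: its weight loss libraries ranged from 39.7 to 475 CPM and overlapped the obese range of 318 to 678 CPM (adjusted p = 0.478). Leaving out 1 library ended the calls (highest adjusted p in parentheses) of Npr3 without obese 1, 2, 3 or 4 or weight loss 1 or 3 (0.0767) and Crispld2 without obese 3, 4 or 5 or weight loss 1 or 3 (0.0912).

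Mest, an imprinted gene whose level follows the expansion of fat pads, fell from 452, 539.9, 438, 557 and 626 CPM to 129, 128, 153 and 60.8 CPM. Every weight loss library lay below the lowest obese library, and weight loss 4 was the lowest of all. The fall was 4.43-fold (log2 -2.15 ± 0.37, adjusted p = 0.00797), and lean fat stood at 52.8 ± 26.4 CPM (SD, n = 5). Mest (Entrez ID 17294, chromosome 6, 30733506 to 30748466) overlaps Copg2 in the annotation. It was the only call among 20 imprinted growth genes, whose median log2 difference was 0.02. Among the other genes with large falls at a high level, Trp53inp2, which takes part in autophagy, went from 995 ± 125 to 387 ± 69.2 CPM (log2 -1.36 ± 0.20, adjusted p = 0.00266). Anxa2, which encodes the membrane-binding protein annexin A2, stood at 1540, 1504, 2140, 1753 and 2322 CPM in obese and 735, 865, 761 and 811 CPM in weight loss libraries, a fall of 2.33-fold (log2 -1.22 ± 0.15, adjusted p = 0.00102). Paqr9, a member of the progestin and adiponectin receptor family, fell from 79.3, 66.9, 85.1, 83.0 and 91.9 CPM to 20.4, 15.6, 22.2 and 18.9 CPM. Its weight loss libraries were tightly grouped and far below the obese ones (log2 -2.08 ± 0.17, adjusted p = 4.37e-05), and its lean level was 17.1 ± 3.91 CPM. Paqr7, of the same family, fell by 0.66 on the log2 scale (adjusted p = 0.00918).

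Oxtr, the oxytocin receptor, stood at 90.2, 100.5, 88.4, 92.4 and 121 CPM in the obese libraries and 26.8, 39.2, 22.8 and 36.4 CPM after weight loss (a log2 difference of -1.65 ± 0.23, adjusted p = 0.00191). Igfals, which holds insulin-like growth factors in a complex with their binding protein, fell from 92.6, 78.6, 83.2, 87.9 and 136 CPM to 36.0, 33.8, 30.5 and 32.5 CPM (log2 -1.53 ± 0.20, adjusted p = 0.00126). The weight loss level of Igfals was below the lean level of 53.3 ± 14.0 CPM. Gpc1, the heparan sulfate proteoglycan glypican-1, fell from 80.1 ± 19.6 to 30.8 ± 1.55 CPM (log2 -1.38 ± 0.17, adjusted p = 0.00116). Ptger3, the prostaglandin E2 receptor that restrains lipolysis, fell from 102, 83.3, 112, 106 and 105 CPM to 35.8, 54.8, 51.5 and 56.1 CPM (log2 -1.04 ± 0.15, adjusted p = 0.00266). Ptger3 and Npr3 were the 2 falls among 23 genes of adrenergic and natriuretic peptide signalling, none of which rose; the median of that list was 0.12. Oxtr, Igfals, Gpc1 and Trp53inp2 were picked from the called genes after their values were seen.

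Genes of cell division were lower after weight loss. Of 32 mitosis genes tested, 9 fell and none rose, 29 had a negative log2 difference, and their median was -1.13 against 0.02 for all genes. Libraries of the groups did not overlap for 17 of the 32, all lower, while 3.27% of all genes were lower without overlap and 0.881% were called lower. Of 30 DNA replication genes, 2 fell and none rose, with a median of -0.31. Mki67, the gene of the proliferation antigen Ki-67 (Entrez ID 17345, chromosome 7, 135689784 to 135716450), stood at 43.0, 23.7, 27.1, 32.6 and 31.2 CPM in the obese libraries and 14.6, 9.76, 11.4 and 8.28 CPM after weight loss. The highest weight loss library was clearly below the lowest obese one (log2 -1.52 ± 0.21, adjusted p = 0.00173), and the lean level was 10.04 ± 1.61 CPM (SD, n = 5). Top2a, the topoisomerase that untangles chromosomes before they separate, fell from 20.7, 13.7, 14.7, 17.6 and 17.9 CPM to 3.78, 4.12, 5.70 and 5.93 CPM (log2 -1.79 ± 0.20, adjusted p = 0.000734). Ube2c, the ubiquitin-conjugating enzyme that serves the anaphase-promoting complex, fell from 16.5, 10.4, 11.8, 13.8 and 15.3 CPM to 3.67, 5.18, 5.06 and 3.69 CPM (log2 -1.62 ± 0.23, adjusted p = 0.00191). Cdc20, which activates the same complex, fell by 1.55 on the log2 scale (adjusted p = 0.00935), and its reads may include those of the overlapping Elovl1. Birc5, the survivin gene, went from 11.1 ± 1.83 to 4.29 ± 0.407 CPM (adjusted p = 0.00266). Other falls in the list were those of Tpx2, Prc1, Cdca8 and Racgap1, which build the spindle and divide the cell, with log2 differences from -1.15 to -1.63. Among replication genes, Tk1, thymidine kinase, fell from 6.22, 5.02, 7.16, 6.18 and 10.1 CPM to 3.44, 2.13, 2.44 and 1.71 CPM (log2 -1.51 ± 0.31, adjusted p = 0.0225) and overlaps Afmid. Mcm5, a subunit of the replicative helicase, fell from 11.4 ± 2.02 to 5.30 ± 1.18 CPM (adjusted p = 0.025). The other helicase subunits Mcm2, Mcm3, Mcm4, Mcm6 and Mcm7 had log2 differences between -0.39 and 0.29 and did not pass. Calls lost when 1 library was omitted (highest adjusted p in parentheses) were those of Tk1 without obese 3 or 5 or weight loss 2, 3 or 4 (0.0773), Mcm5 without obese 1, 4 or 5 or weight loss 1, 2 or 3 (0.0871), Tpx2 without obese 1 or 4 or weight loss 1, 2 or 4 (0.0744) and Racgap1 without obese 3 or 5 or weight loss 1 or 4 (0.0601).

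Cdkn1a, which encodes the p21 inhibitor of cyclin-dependent kinases, stood at 95.7, 62.2, 89.1, 97.5 and 87.4 CPM in the obese libraries and 32.5, 28.3, 29.7 and 23.9 CPM after weight loss. The fall was 3.02-fold (log2 -1.59 ± 0.21, adjusted p = 0.00118), and obese 2 was the lowest obese library. It was the only call among 20 cyclin-dependent kinase inhibitors and p53 targets, whose median was -0.04. Adipocyte progenitor, endothelial and macrophage marker lists, cell types that can divide in this tissue, held no edgeR call (values below). Their part in the fall of mitosis genes was not tested.

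The start regions of these genes are shown because several of the falling mitosis genes carry the same short elements. Cell cycle genes of this kind are known to be controlled through the cell cycle homology region (CHR), searched here as TTTGAA or TTCGAA, and through the CCAAT box. In RefSeq promoters, from 250 bases before to 50 after the gene start on GRCm38.p6, 10 of the 11 falling replication and mitosis genes had an entry. A CHR match on either strand was found in 7 of these 10 and a CCAAT match in 8. The shares were 19.2% and 37.4% of all 32851 promoters and 16.9% and 42.2% of the tested genes with a promoter. CCAAT was not particular to this set. It was also in 4 of 5 rising clock genes and 2 of 2 falling genes of the cholesterol and sterol lists with a promoter, while CHR was in none of them. The promoters of Top2a (chr11:99024140-99024439, minus strand), Ube2c (chr2:164769679-164769978, plus strand), Mki67 (chr7:135716330-135716629, minus strand) and Cdc20 (chr4:118437294-118437593, minus strand) follow, with matches to CHR and CCAAT on either strand in capitals.
Top2a: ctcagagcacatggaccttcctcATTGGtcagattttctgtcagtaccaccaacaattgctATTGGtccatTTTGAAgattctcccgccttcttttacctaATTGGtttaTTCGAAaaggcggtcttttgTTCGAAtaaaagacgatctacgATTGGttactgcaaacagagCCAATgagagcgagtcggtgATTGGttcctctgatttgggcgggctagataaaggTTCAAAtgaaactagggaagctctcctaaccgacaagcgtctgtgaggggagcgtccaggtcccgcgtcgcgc
Ube2c: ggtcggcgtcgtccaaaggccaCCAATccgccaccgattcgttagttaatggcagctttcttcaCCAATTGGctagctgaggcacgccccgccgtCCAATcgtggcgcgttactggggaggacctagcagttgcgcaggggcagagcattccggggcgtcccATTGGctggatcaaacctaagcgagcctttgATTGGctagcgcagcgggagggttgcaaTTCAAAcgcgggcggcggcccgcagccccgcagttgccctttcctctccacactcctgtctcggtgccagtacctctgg
Mki67: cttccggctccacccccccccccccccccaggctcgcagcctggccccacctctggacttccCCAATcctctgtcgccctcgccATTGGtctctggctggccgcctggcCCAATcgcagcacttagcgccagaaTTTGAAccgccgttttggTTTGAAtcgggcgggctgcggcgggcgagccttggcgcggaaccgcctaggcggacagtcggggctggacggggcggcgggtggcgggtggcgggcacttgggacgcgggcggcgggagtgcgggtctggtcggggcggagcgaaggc
Cdc20: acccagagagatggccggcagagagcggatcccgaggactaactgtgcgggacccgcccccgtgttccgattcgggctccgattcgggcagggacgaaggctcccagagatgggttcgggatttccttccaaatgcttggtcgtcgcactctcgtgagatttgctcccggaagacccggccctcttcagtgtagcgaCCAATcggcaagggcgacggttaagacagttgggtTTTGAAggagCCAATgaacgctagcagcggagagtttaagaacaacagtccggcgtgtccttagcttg
The CHR matches began 179, 140, 120 and 23 bases before the start of Top2a, 29 before that of Ube2c, 116 and 98 before that of Mki67 and 18 before that of Cdc20. CHR and CCAAT matches did not overlap each other in these 4 regions, and a pair of CCAAT matches on opposite strands overlapped in Ube2c. A match describes the letters in this window, not a bound site.

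Tuba1a, an alpha-tubulin, stood at 925, 680, 1144, 1048 and 1591 CPM in the obese libraries and 253, 298, 240.2 and 249.5 CPM after weight loss. It fell 4.14-fold (log2 -2.05 ± 0.20, adjusted p = 0.000234), and the lean level was 242 ± 31.8 CPM. Its near-identical neighbour Tuba1b fell by 1.11 on the log2 scale and the beta-tubulin Tubb5 by 0.51 (adjusted p = 0.0101 and 0.0348). In all, 3 of 18 tubulin genes fell and none rose, with a median of -0.52. Of 39 kinesin genes, motors that walk on tubulin, Kif4, Kif22 and Kifc1 fell and none rose, but the median was 0.01. Of 23 histone genes H1f4, H3c14 and H3c15 fell, with a median of -0.27. H3c15 went from 23.3 ± 4.19 to 8.99 ± 0.939 CPM (log2 -1.37 ± 0.20). How reads were shared between near-identical copies is not given in the sources used here, so values of Tuba1a against Tuba1b and of H3c14 against H3c15 are uncertain. These families were grouped by symbol after their values were seen. Omitting 1 library ended the calls (highest adjusted p in parentheses) of Tubb5 without obese 1, 2, 3 or 5 or weight loss 2 or 3 (0.117), H3c14 without obese 1, 4 or 5 or weight loss 1, 2, 3 or 4 or lean 1 (0.131) and Kifc1 without obese 1, 3, 4 or 5 or weight loss 1, 2 or 3 (0.118).

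Several circadian clock genes rose after weight loss and none fell. The clock is a loop in which CLOCK and BMAL1 switch on the Per and Cry genes, whose proteins then shut it down, with the REV-ERB and ROR receptors and the output factors Dbp, Hlf and Tef as further arms. Of 17 core clock genes tested 5 rose and none fell, with a median log2 difference of 0.36. Of 6 output factors 2 rose and none fell, with a median of 0.49. Without the 4 epididymis-rich libraries no gene of either list was called. With the epididymis covariate 1 core clock gene and no output factor was called. Among the repressors, Per3 (Entrez ID 18628, chromosome 4, 150997018 to 151044707) stood at 53.2, 51.4, 42.3, 41.7 and 63.7 CPM in the obese libraries and 75.5, 95.7, 80.5 and 74.0 CPM after weight loss. The lowest weight loss library was above the highest obese one (log2 0.69 ± 0.13, adjusted p = 0.0119). Per2 rose from 47.7, 41.5, 37.1, 43.0 and 39.5 CPM to 76.4, 70.0, 67.6 and 52.5 CPM (log2 0.67 ± 0.14, adjusted p = 0.0198), and weight loss 4 was the closest to the obese range. Ciart, a repressor of CLOCK and BMAL1 (Entrez ID 229599, chromosome 3, 95878500 to 95882257), stood at 6.32, 6.24, 8.25, 4.71 and 7.65 CPM in the obese libraries and 10.5, 20.2, 11.1 and 23.3 CPM after weight loss. Weight loss 2 and 4 were high and weight loss 1 and 3 lay just above the obese libraries (log2 1.29 ± 0.26, adjusted p = 0.0206). With 1 library left out, calls were lost (highest adjusted p in parentheses) for Per3 without obese 3 (0.0511), Per2 without obese 3 or 5 or weight loss 1, 2 or 3 (0.0738) and Ciart without obese 1, 2 or 4 or weight loss 2 or 4 (0.074).

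Of the receptor arm, Nr1d2, the gene of REV-ERB-beta, rose from 89.9 ± 10.8 to 137 ± 18.5 CPM (adjusted p = 0.0214). Nr1d1, its sister gene, had a log2 difference of 0.50 ± 0.17 and did not pass (adjusted p = 0.167), although its groups did not overlap. Dbp rose from 124, 127, 149, 117 and 237 CPM to 276, 273, 225 and 344 CPM (log2 0.89 ± 0.20, adjusted p = 0.0408), and obese 5 was above weight loss 3. Hlf rose from 19.6, 25.0, 19.2, 22.1 and 19.0 CPM to 36.4, 39.6, 40.2 and 39.3 CPM (log2 0.89 ± 0.17, adjusted p = 0.0175), with no overlap. Tef missed the threshold at 0.52 (adjusted p = 0.0511). The activators Clock and Arntl, the gene of BMAL1, had log2 differences of -0.17 ± 0.17 and -0.11 ± 0.42 (adjusted p = 0.721 and 0.949). Lean levels were 97.0 ± 3.52 CPM for Per3, 23.0 ± 5.08 for Ciart, 344 ± 57.2 for Dbp and 41.4 ± 11.9 for Hlf. Dbp overlaps Sphk2 and Ciart a noncoding gene. The hour at which the fat was collected is not given in the labels, so its part in these differences was not tested. Leaving out 1 library ended the calls (highest adjusted p in parentheses) of Nr1d2 without obese 3 or 5 or weight loss 1, 2 or 3 (0.0781), Dbp without obese 1, 2, 3 or 4 or weight loss 1, 2, 3 or 4 or lean 2, 3, 4 or 5 (0.119) and Hlf without obese 3 or weight loss 3 (0.0534).

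Promoters of 2 of these genes are shown because they hold the elements by which the clock is known to act, the E-box bound by CLOCK and BMAL1 and the D-box bound by Dbp, Hlf and Tef. A RefSeq promoter was present for 5 of the 7 rising clock genes. The E-box CACGTG was found in Ciart alone among these 5, against 7.15% of all promoters and 11% of tested genes. The D-box, TTATGTAA or TTACGTAA on either strand, was found in Per3 alone, against 1.06% and 0.928%. The REV-ERB and ROR element TAGGTCA was found in none of the 5, against 2.61% and 2.39%. The sequences of Ciart (chr3:95882179-95882478, minus strand) with E-boxes in capitals and of Per3 (chr4:151044616-151044915, minus strand) with D-boxes in capitals are as follows.
Ciart: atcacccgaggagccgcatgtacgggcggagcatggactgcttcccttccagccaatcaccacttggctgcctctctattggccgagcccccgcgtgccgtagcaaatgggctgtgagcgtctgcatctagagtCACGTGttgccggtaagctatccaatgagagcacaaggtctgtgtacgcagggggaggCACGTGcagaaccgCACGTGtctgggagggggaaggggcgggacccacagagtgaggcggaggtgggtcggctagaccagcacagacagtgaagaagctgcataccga
Per3: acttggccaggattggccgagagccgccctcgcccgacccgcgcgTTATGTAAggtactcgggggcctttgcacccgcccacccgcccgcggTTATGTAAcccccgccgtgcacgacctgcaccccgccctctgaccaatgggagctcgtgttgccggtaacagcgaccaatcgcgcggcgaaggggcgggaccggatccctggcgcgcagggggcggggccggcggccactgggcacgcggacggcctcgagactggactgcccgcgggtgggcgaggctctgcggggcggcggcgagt
The E-boxes began 116, 58 and 44 bases before the start of Ciart and the D-boxes 205 and 158 bases before that of Per3.

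**Figure D4:**
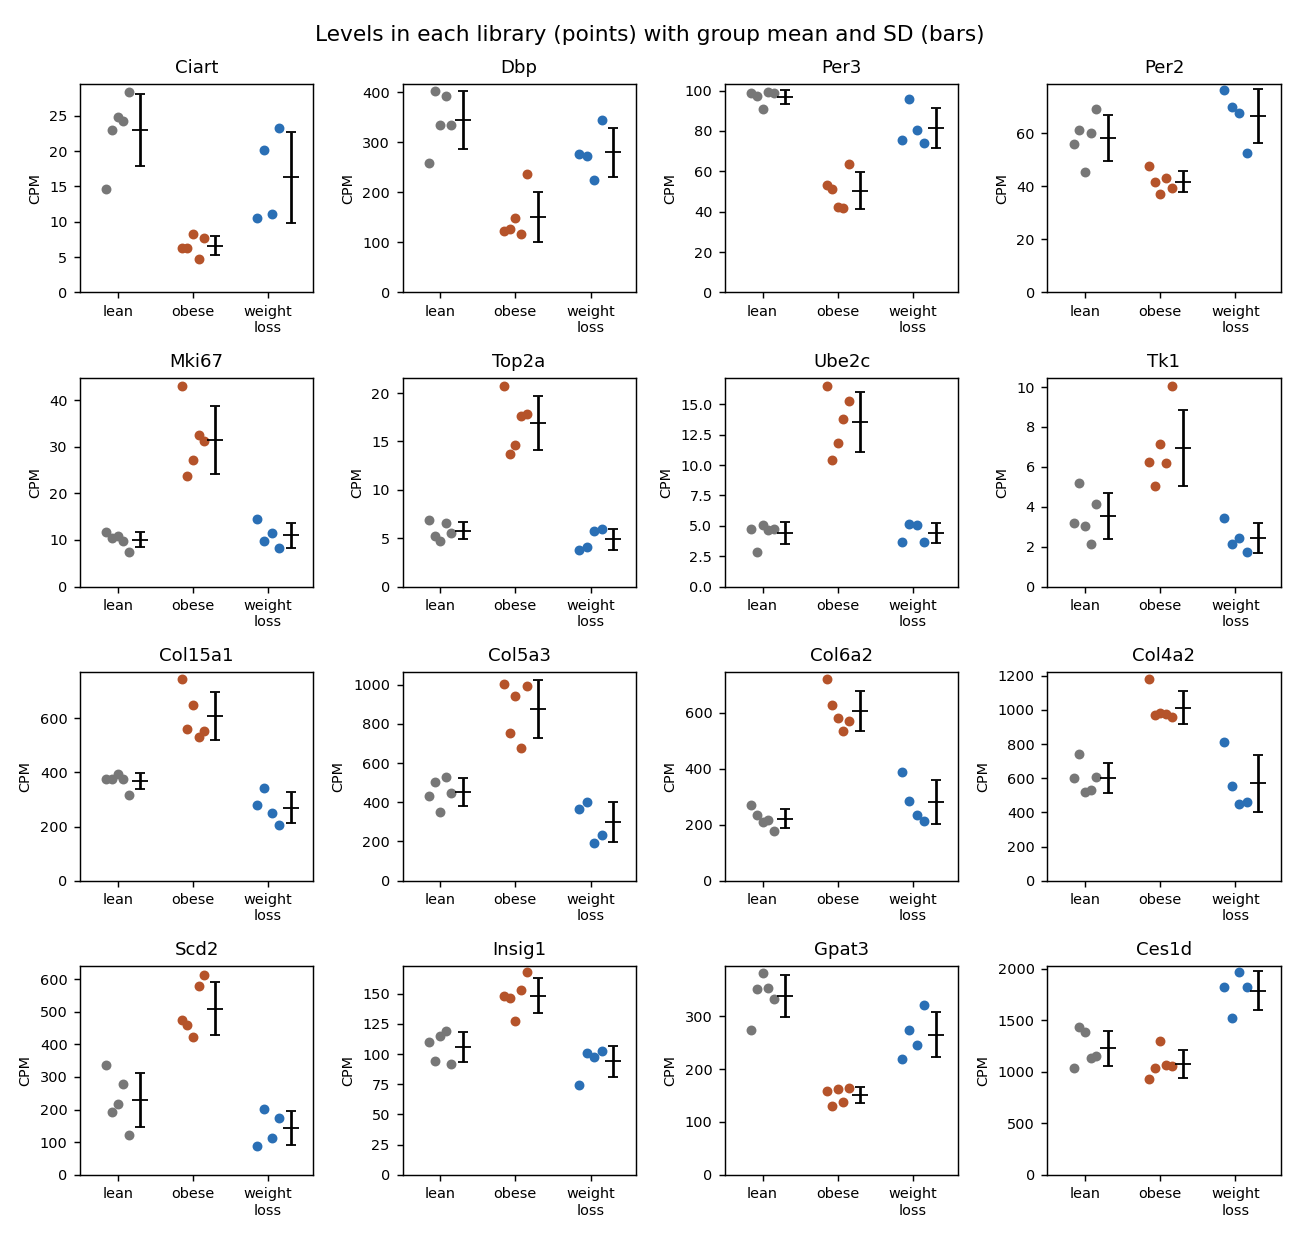
CPM in each library (points) with the group mean and SD (bars) for 16 genes, by row clock, cell division, collagen and lipid genes; each vertical axis starts at 0. In the clock row obese libraries are low, in the cell division and collagen rows they are high, and in the lipid row Scd2 and Insig1 are lower and Gpat3 and Ces1d higher after weight loss.

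Several collagen genes fell. Of 22 collagen chain genes 6 fell and none rose, with a median log2 difference of -0.65. Col15a1, of the collagen that links basement membranes to fibres, stood at 744, 561, 649.7, 531 and 553 CPM in the obese libraries and 281, 341, 249 and 205 CPM after weight loss. The groups were well separated (log2 -1.18 ± 0.15, adjusted p = 0.00116), and the weight loss mean of 269 ± 57.3 CPM was below the lean mean of 367 ± 29.7 CPM. Col5a3, a type V collagen chain, fell from 1003, 755, 945, 679 and 995 CPM to 368, 402, 192 and 236 CPM (log2 -1.55 ± 0.21, adjusted p = 0.00191). Col6a2, of the beaded type VI collagen around adipocytes, fell from 719, 629, 582, 534 and 570.5 CPM to 389.7, 283, 235 and 212 CPM (log2 -1.12 ± 0.17, adjusted p = 0.00384). Its partner Col6a1 fell by 0.80 on the log2 scale and Col5a1 by 0.74 (adjusted p = 0.0408 and 0.0434). Col4a2, of the basement membrane, stood at 1184, 970.4, 980.4, 975 and 958 CPM and 812, 556, 448 and 462 CPM (log2 -0.83 ± 0.17, adjusted p = 0.0214), with obese 1 highest, and overlaps Col4a1. Col1a1 and Col3a1 had log2 differences of -0.13 ± 0.21 and -0.55 ± 0.29 (adjusted p = 0.853 and 0.433). Calls lost when 1 library was omitted (highest adjusted p in parentheses) were those of Col4a2 without obese 1 or 3 or weight loss 2, 3 or 4 (0.0803), Col6a1 without obese 1, 2, 3 or 4 or weight loss 2, 3 or 4 or lean 3 or 5 (0.125) and Col5a1 without obese 1, 2, 3, 4 or 5 or weight loss 2, 3 or 4 or lean 1, 3 or 4 (0.134).

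Other matrix genes gave fewer calls. Sparc, a collagen-binding protein, fell from 3649, 3593, 3471, 3575 and 3291 CPM to 2648, 2151, 2051 and 1748 CPM (log2 -0.71 ± 0.12, adjusted p = 0.00604). It was the only call among 37 matrix glycoprotein, laminin and proteoglycan genes, whose median was -0.20. Serpinh1, the collagen chaperone, fell from 745, 696, 904, 728 and 746 CPM to 570.2, 428, 482 and 505 CPM (log2 -0.62 ± 0.12, adjusted p = 0.0132), the only call among 22 genes that hydroxylate and crosslink collagen (median -0.27). Of 21 matrix proteases and their inhibitors 2 fell, with a median of 0.08: Adam12, a membrane metalloproteinase (log2 -1.22 ± 0.22), and Adamts5, a proteoglycan-cleaving enzyme (log2 -0.94 ± 0.17, adjusted p = 0.011 and 0.0123). Outside these lists Podn, a small leucine-rich matrix protein, rose from 113, 101, 112, 91.9 and 124 CPM to 246, 248, 213 and 243 CPM (log2 1.13 ± 0.14, adjusted p = 0.000919), and Ncan, the proteoglycan neurocan, fell from 19.6, 16.1, 15.0, 18.4 and 30.6 CPM to 5.87, 5.39, 4.43 and 3.95 CPM (log2 -2.02 ± 0.25, adjusted p = 0.00116). Omitting 1 library ended the calls (highest adjusted p in parentheses) of Serpinh1 without weight loss 2 (0.0501).

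A few genes of sterol and fatty acid synthesis fell. Of 20 genes of the cholesterol pathway 2 fell and none rose, yet 19 of the 20 had a negative log2 difference and the median was -0.66. Groups did not overlap for 7 lower genes and 1 higher gene, against 3.27% and 3.38% of all genes. Nsdhl, which removes a methyl group from sterols, fell from 35.4, 40.5, 32.4, 42.2 and 48.0 CPM to 13.8, 29.0, 20.2 and 26.0 CPM (log2 -0.83 ± 0.20, adjusted p = 0.047). Insig1, a sterol-induced brake on that pathway, fell from 148, 146, 127, 153 and 168 CPM to 74.6, 101, 97.7 and 102 CPM (log2 -0.66 ± 0.12, adjusted p = 0.0143), the only call among 18 genes of sterol sensing, uptake and efflux (median 0.20). The sterol response element TCACNCCAC was in neither RefSeq promoter of this pair, Nsdhl and Insig1, against 1.24% of all promoters. With 1 library left out, calls were lost (highest adjusted p in parentheses) for Nsdhl without obese 1, 2, 3, 4 or 5 or weight loss 1, 3 or 4 or lean 2, 3 or 4 (0.137).

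Among desaturases, Scd2 fell and Scd1 did not pass. Scd2, a stearoyl-CoA desaturase, stood at 476, 459, 422, 578 and 614 CPM in the obese libraries and 87.7, 201, 114 and 174 CPM after weight loss, a fall of 3.54-fold (log2 -1.82 ± 0.29, adjusted p = 0.0042). Scd1, its relative, had 16430 ± 2438 CPM and 16150 ± 2496 CPM (log2 -0.03 ± 0.16, adjusted p = 0.97). In all 3 of 20 desaturase and elongase genes fell and none rose (median -0.18), the others being Fads3, of the fatty acid desaturase cluster (log2 -0.68 ± 0.13), and Degs1, which desaturates ceramide precursors (log2 -0.47 ± 0.11, adjusted p = 0.0158 and 0.0457). Of 18 genes of fatty acid synthesis 2 fell, Scd2 and Pgd, an enzyme of the pentose phosphate pathway (log2 -0.70 ± 0.16, adjusted p = 0.0435), and the median was -0.21. Fasn, fatty acid synthase, was split within the weight loss group: 699, 2060, 566 and 2474 CPM, against 2697, 1391, 2230, 1646 and 2820 CPM in obese fat. Weight loss 1 and 3 were low and weight loss 2 and 4 lay within the obese range (log2 -0.57 ± 0.40, adjusted p = 0.579). Leaving out 1 library ended the calls (highest adjusted p in parentheses) of Fads3 without obese 5 (0.0526), Degs1 without obese 1, 2, 3, 4 or 5 or weight loss 1, 2, 3 or 4 or lean 1, 4 or 5 (0.124) and Pgd without obese 1, 3, 4 or 5 or weight loss 1, 2 or 3 or lean 2, 3, 4 or 5 (0.131).

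Genes of triglyceride synthesis changed in both directions. Of 17 genes tested 3 rose and 1 fell, with a median of -0.02. Agpat2, also listed, had 0 CPM in all 9 libraries and was not tested. The rises were in the glycerol phosphate route. Gpat3, which adds the first fatty acid to glycerol phosphate, rose from 159.5, 130.5, 162, 138 and 164 CPM to 219.9, 275, 246 and 321 CPM (log2 0.81 ± 0.13, adjusted p = 0.00424). Gpat4, which carries out the same step, rose from 206, 197, 223, 219 and 241 CPM to 325, 326, 282 and 414 CPM (log2 0.63 ± 0.12, adjusted p = 0.0148), and Lpin1, the phosphatase that makes diacylglycerol, from 582, 504, 538, 576 and 532 CPM to 802, 824, 868 and 778 CPM (log2 0.58 ± 0.10, adjusted p = 0.00797). The fall was in the monoacylglycerol route. Mogat2 (Entrez ID 233549, chromosome 7, 99219084 to 99238611), a monoacylglycerol acyltransferase known from the intestine, stood at 15.7, 10.2, 21.6, 19.8 and 21.0 CPM in the obese libraries and 0.903, 2.29, 2.76 and 1.60 CPM after weight loss, a fall of 9.29-fold (log2 -3.21 ± 0.35, adjusted p = 0.000664). Dgat2, which makes the final bond, had a log2 difference of -0.94 ± 0.24 and missed the threshold (adjusted p = 0.0682), though its groups did not overlap. Gpat3 overlaps Abraxas1 and Lpin1 overlaps Ntsr2. Calls lost when 1 library was omitted (highest adjusted p in parentheses) were those of Gpat4 without obese 3 or weight loss 4 (0.0648).

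Genes of lipid breakdown and uptake had few calls, all of them rises. Of 14 lipolysis and carboxylesterase genes 2 rose and none fell, with a median of 0.10. Ces1d, a triacylglycerol hydrolase of adipocytes, stood at 927, 1039, 1297, 1064 and 1061 CPM in the obese libraries and 1828, 1527, 1971 and 1828 CPM after weight loss (a log2 difference of 0.73 ± 0.13, adjusted p = 0.00805). Ces1f, of the same gene cluster, rose from 76.1, 86.8, 97.2, 63.5 and 55.6 CPM to 191, 146, 234 and 239 CPM (log2 1.42 ± 0.22, adjusted p = 0.00337). Both means after weight loss were above the lean means of 1229 ± 172 and 159 ± 43.6 CPM. Pnpla2, the main lipase of fat, and Lipe, hormone-sensitive lipase, did not pass, with log2 differences of 0.27 ± 0.18 and 0.05 ± 0.17. Of 20 fatty acid uptake genes 1 rose (median -0.04): Slc27a1, a fatty acid transport protein, went from 521, 608, 663, 409 and 706 CPM to 1257, 923, 1128 and 1146 CPM (log2 0.94 ± 0.20, adjusted p = 0.0311). Lpl did not pass (log2 -0.12 ± 0.14, adjusted p = 0.791). edgeR made no call among 28 genes of fatty acid oxidation and peroxisomes (median 0.08), 15 lipid droplet genes (0.02) or 20 citrate cycle genes (0.03), of which 4, 2 and 2 had an unadjusted p under 0.05. DESeq2 called none, 1 and 2 of these, all higher, and limma-voom with quality weights called 2 citrate cycle genes higher. Omitting 1 library ended the calls (highest adjusted p in parentheses) of Slc27a1 without obese 1, 2, 3 or 4 or weight loss 1, 3 or 4 (0.0811).

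Nat8l (Entrez ID 269642, chromosome 5, 33995984 to 34005916), which makes N-acetylaspartate and thereby carries acetyl groups out of mitochondria, stood at 49.8, 75.3, 59.9, 41.8 and 56.3 CPM in the obese libraries and 204, 147, 175 and 183 CPM after weight loss. The lowest weight loss library was far above the highest obese one (log2 1.65 ± 0.21, adjusted p = 0.00116). It was 1 of 2 rises among 14 genes of N-acetylaspartate, acetate and ketone bodies (median 0.18). Of 23 genes that break down branched-chain amino acids 3 rose and none fell, 21 had a positive log2 difference, and the median was 0.30. Dbt, a core subunit of the branched-chain dehydrogenase, rose from 158, 137, 162, 125 and 105 CPM to 194, 213, 291 and 267 CPM (log2 0.81 ± 0.19, adjusted p = 0.0471). Ppm1k, the phosphatase that activates that enzyme, rose from 26.1, 22.7, 28.1, 23.9 and 18.9 CPM to 40.0, 35.8, 44.5 and 39.3 CPM (log2 0.74 ± 0.15, adjusted p = 0.0184), and Slc25a44, which carries these amino acids into mitochondria, by 0.51 (adjusted p = 0.0439). Acsm3 and Acsm5, which activate medium-chain fatty acids, rose from 2.95 ± 0.776 to 10.8 ± 2.32 and from 10.1 ± 2.15 to 19.3 ± 1.63 CPM (adjusted p = 0.0202 and 0.00974). Cox7a1, a muscle-type subunit of cytochrome oxidase, fell from 9.41 ± 2.25 to 3.91 ± 1.05 CPM (adjusted p = 0.0376), the only call among 33 respiratory chain subunits (median 0.00). With 1 library left out, calls were lost (highest adjusted p in parentheses) for Dbt without obese 1, 2, 3, 4 or 5 or weight loss 2, 3 or 4 or lean 2, 4 or 5 (0.153), Ppm1k without obese 2 or weight loss 3 (0.0679), Slc25a44 without obese 1, 2, 3, 4 or 5 or weight loss 1, 2 or 4 or lean 2 or 4 (0.121), Acsm3 without obese 2, 4 or 5 or weight loss 3 or 4 (0.063) and Cox7a1 without obese 1, 3, 4 or 5 or weight loss 1, 2 or 3 (0.118).

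Insulin signalling had 1 call among 25 genes, with a median of 0.19. Insr, the insulin receptor, rose from 172, 153, 139, 143 and 127 CPM to 268, 222, 226 and 214 CPM, without overlap (log2 0.66 ± 0.11, adjusted p = 0.00592). Of 31 genes of glycolysis, glycogen and pyruvate 1 rose and 1 fell (median -0.11). Pdk2, the kinase that shuts off pyruvate dehydrogenase, rose from 89.0, 91.3, 87.3, 101 and 103 CPM to 176, 136, 147 and 168 CPM (log2 0.73 ± 0.11, adjusted p = 0.00266), and Tpi1, triose phosphate isomerase, fell from 626 ± 132 to 334 ± 105 CPM (adjusted p = 0.0318). Antioxidant and detoxifying enzymes rose in a few places: Gpx3, the secreted glutathione peroxidase, went from 953, 908, 1025, 1515 and 883 CPM to 2173, 2125, 1855 and 2512 CPM (log2 1.03 ± 0.19, adjusted p = 0.0106). Gstt1 and Gstt2, glutathione transferases, had log2 differences of 0.58 ± 0.13 and 0.87 ± 0.20 (adjusted p = 0.0344 and 0.0376), and these 3 were the calls among 33 such genes (median 0.01). Cyp2d22, a cytochrome P450 gene, rose by 0.65 (adjusted p = 0.00456), the only call among 20 (median 0.15). Leaving out 1 library ended the calls (highest adjusted p in parentheses) of Tpi1 without obese 3, 4 or 5 or weight loss 1, 2 or 3 (0.109), Gstt1 without obese 1, 2, 3, 4 or 5 or weight loss 2 or 4 or lean 2 (0.113) and Gstt2 without obese 1, 2, 3 or 4 or weight loss 1, 3 or 4 or lean 2 or 4 (0.103).

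Slc5a7, the choline transporter of nerve endings, had the lowest log2 difference of the called genes with all 14 libraries, but not in either epididymis alternative. With the covariate Slc5a7 was at -3.20 and Rnase2a at -4.40. Without the 4 epididymis-rich libraries they were at -3.714 and -3.729. Slc5a7 stood at 7.01, 10.6, 6.73, 8.27 and 11.2 CPM in the obese libraries and 0.677, 0.102, 1.22 and 0.0534 CPM after weight loss (a log2 difference of -4.06 ± 0.83, adjusted p = 0.0225), so that weight loss levels rest on few reads. Without weight loss 3 its log2 difference was -4.97. Among rises, Slc5a6, which imports biotin and pantothenate, went from 36.3, 37.1, 43.0, 35.1 and 62.3 CPM to 93.2, 111, 89.3 and 155 CPM (log2 1.39 ± 0.25, adjusted p = 0.0103) and overlaps Atraid. Slc1a3, a glutamate transporter, rose from 118, 102, 104, 86.0 and 106 CPM to 254, 226, 317 and 241 CPM (log2 1.33 ± 0.20, adjusted p = 0.00349). Slc43a1, a carrier of large neutral amino acids, rose from 51.5, 40.4, 54.1, 38.9 and 37.6 CPM to 119, 89.2, 128 and 100.4 CPM (log2 1.29 ± 0.23, adjusted p = 0.0103). Calls lost when 1 library was omitted (highest adjusted p in parentheses) were those of Slc5a7 without obese 5 or weight loss 1, 2 or 4 (0.0741).

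Several acute-phase genes fell, and lists of immune cell markers held 1 call. Of 14 acute-phase and calgranulin genes 4 fell and none rose, with a median of -0.77. Lbp, which binds bacterial lipopolysaccharide, stood at 427, 452, 446, 439 and 499.5 CPM in the obese libraries and 189.5, 239, 167 and 163 CPM after weight loss (a log2 difference of -1.26 ± 0.16, adjusted p = 0.00116). Orm1, an acid glycoprotein, fell from 255, 286, 457, 373 and 441 CPM to 49.2, 115, 48.2 and 132 CPM (log2 -2.07 ± 0.35, adjusted p = 0.00708), and its close copy Orm2 from 7.29 ± 1.02 to 1.82 ± 0.792 CPM (adjusted p = 0.0241); reads of this pair may be shared. S100a8, a calgranulin, fell from 3.19, 3.92, 4.77, 4.35 and 5.75 CPM to 0.452, 0.813, 0.452 and 0.374 CPM (log2 -3.06 ± 0.61, adjusted p = 0.0191) and was also the only call among 8 neutrophil markers (median -0.11). Saa3 and Lcn2 did not pass (adjusted p = 0.113 and 0.525). Lcn2 was highest in obese 2 and 5, at 1018 and 721 CPM, the libraries with the highest epididymis sums. Of 21 complement genes 1 rose and 1 fell (median 0.15): C2, of the classical pathway, rose from 161 ± 21.5 to 266 ± 35.7 CPM, and Cfb, of the alternative pathway, fell from 447 ± 31.9 to 295 ± 61.3 CPM (adjusted p = 0.0347 and 0.0468). The chemokine Ccl8 fell from 15.6, 9.11, 9.98, 19.9 and 8.50 CPM to 1.58, 3.20, 2.31 and 4.27 CPM (log2 -2.15 ± 0.48, adjusted p = 0.037), the only call among 33 chemokines and their receptors (median -0.11). Ccl2, the chief monocyte attractant, had a log2 difference of -0.92 ± 0.44 (adjusted p = 0.365). Omitting 1 library ended the calls (highest adjusted p in parentheses) of Orm2 without obese 3 or 4 or weight loss 1, 3 or 4 (0.0871), S100a8 without weight loss 1, 3 or 4 (0.0744), C2 without obese 1, 2, 3, 4 or 5 or weight loss 1, 3 or 4 (0.0977), Cfb without obese 1, 2, 3, 4 or 5 or weight loss 2, 3 or 4 or lean 1, 2 or 5 (0.153) and Ccl8 without obese 1, 3 or 4 or weight loss 1, 2 or 3 (0.116).

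edgeR made no call among 20 general macrophage markers, with a median of -0.14, or 17 lipid-associated macrophage markers, with a median of -0.03. None of the former and 3 of the latter had an unadjusted p under 0.05, and DESeq2 called 1 of the latter higher and 1 lower. With 1.62% of all genes called, lists of this size often hold no call. The weight loss group was split here. Summed general markers stood at 1713, 779, 1686 and 1293 CPM in weight loss replicates 1 to 4 and at 1214 to 1899 CPM in the obese libraries. Adgre1, the F4/80 antigen, was at 34.3, 14.4, 47.8 and 17.8 CPM in the weight loss libraries and 42.8, 32.4, 27.6, 32.1 and 18.4 CPM in the obese ones (adjusted p = 0.955). Weight loss 1 and 3 were at or above most obese libraries and weight loss 2 and 4 were below all of them. Cd68, Itgax, the CD11c integrin, and Trem2, a lipid receptor, had log2 differences of -0.05 ± 0.33, -0.03 ± 0.40 and 0.46 ± 0.32 (adjusted p = 0.97, 0.987 and 0.582). Tnf stood at or below 1.65 CPM in each of the 9 libraries (adjusted p = 0.811). Lists of T, NK and B cells, mast cells, dendritic cells, alternative activation and eosinophil genes, adipocyte progenitors and mesothelium held no call either. Nor did those of endothelium, smooth muscle, skeletal muscle, red blood cells and Schwann cells. Medians of all these lists ran from -0.60 (skeletal muscle) to 0.11 (dendritic cells). Summed over these 11 lists, 16 of 132 members had an unadjusted p under 0.05, DESeq2 called 1 higher and 2 lower, and limma-voom with quality weights called 1 higher and 2 lower. All 21 tested epididymis markers had a negative log2 difference, with a median of -9.40. None passed in edgeR at the adjusted threshold, 18 had an unadjusted p under 0.05, and DESeq2 called 16 of them lower.

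Several genes of other function had large or firm changes. The noncoding transcript 1700047G03Rik (Entrez ID 73339, chromosome 15, 11967062 to 11970083) had the smallest adjusted p together with Paqr9. It stood at 46.4, 48.8, 50.7, 55.2 and 66.5 CPM in the obese libraries and 4.91, 7.22, 5.06 and 2.30 CPM after weight loss (a log2 difference of -3.46 ± 0.28, adjusted p = 4.37e-05), and its lean level was 2.29 ± 0.513 CPM. Olfm1, a secreted olfactomedin, fell from 301, 238, 277, 264 and 269 CPM to 122, 139, 113 and 90.6 CPM, and Tspan17, a tetraspanin, from 188, 202, 222, 187 and 257 CPM to 113, 112, 102 and 94.3 CPM (adjusted p = 0.000734 and 0.000664). Cryab, a small heat shock protein, fell from 264, 274, 276, 286 and 314 CPM to 108, 163, 107 and 105 CPM (log2 -1.23 ± 0.14, adjusted p = 0.000734), with weight loss 2 apart from the others, and overlaps Hspb2. Hfe, a regulator of iron uptake, fell from 116, 104, 139, 129 and 125 CPM to 39.4, 65.3, 49.3 and 64.6 CPM (log2 -1.17 ± 0.17, adjusted p = 0.00239). It was 1 of 2 falls among 21 iron and heme genes (median -0.02), the other being the heme carrier Slc48a1 (log2 -0.43 ± 0.10, adjusted p = 0.046). Lrrc4, a synaptic adhesion protein (Entrez ID 192198, chromosome 6, 28828126 to 28831747), rose from 1.81, 3.13, 1.68, 2.77 and 1.34 CPM to 8.92, 7.07, 7.28 and 8.39 CPM (log2 1.88 ± 0.24, adjusted p = 0.00122); it overlaps Snd1, and how reads of the pair were assigned is not given in the sources used here. Prtn3, a granule protease, rose from 10.3, 16.7, 19.1, 11.0 and 13.5 CPM to 35.5, 32.2, 34.6 and 58.6 CPM (log2 1.51 ± 0.31, adjusted p = 0.0248). Dennd2d, a regulator of Rab proteins, and the overlapping 2010016I18Rik rose together, by 1.30 and 1.34, and their reads cannot be told apart. With 1 library left out, calls were lost (highest adjusted p in parentheses) for Slc48a1 without obese 2, 3, 4 or 5 or weight loss 1, 2, 3 or 4 or lean 3 or 4 (0.149) and Prtn3 without obese 1, 4 or 5 or weight loss 4 (0.0744).

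Other calls were of smaller size or at low levels. Sphingolipid genes included 1 rise and 2 falls among 19 tested (median 0.05). Sgpl1, which degrades sphingosine phosphate, was higher by 0.76 and Degs1 lower, at -0.47. The listed genes Cers2, Cers4, Cers5 and Cers6 had 0 CPM in all 9 libraries and were not tested. Fgf10, a growth factor for fat precursors, was the only call among 21 growth factor genes (log2 0.66 ± 0.15, adjusted p = 0.0361), and Dkk3 the only call among 31 Wnt pathway genes (log2 0.73 ± 0.17, adjusted p = 0.047). Dap, Mmd and S100a11, at 336 ± 20.4, 1113 ± 73.1 and 1164 ± 72.9 CPM in obese fat, fell by 0.75, 0.71 and 0.64 on the log2 scale. At low levels, Rnase2a, of the eosinophil-associated ribonucleases, fell from 9.43 ± 3.06 to 0.669 ± 0.325 CPM. Kcnj14, a potassium channel, Gm5627, 9030619P08Rik and Hpdl also fell, by up to 3.36 on the log2 scale, and Cabp4, a calcium-binding protein, rose by 1.46. Hpdl ranged from 1.08 to 13.2 CPM in obese libraries, highest in obese 4 and 5, and its log2 difference was -0.96 without the 4 epididymis-rich libraries against -2.64 with them, and -2.04 without obese 4. Leaving out 1 library ended the calls (highest adjusted p in parentheses) of Sgpl1 without obese 3 or 5 or weight loss 3 (0.0613), Fgf10 without obese 1, 2, 4 or 5 or weight loss 1, 3 or 4 or lean 4 (0.124), Dkk3 without obese 1, 3, 4 or 5 or weight loss 1, 2, 3 or 4 or lean 1, 4 or 5 (0.121), Mmd without obese 3, 4 or 5 or weight loss 1, 3 or 4 (0.0837), Rnase2a without weight loss 2 (0.055), Gm5627 without weight loss 3 or 4 (0.0619), Cabp4 without obese 1, 3, 4 or 5 or weight loss 2, 3 or 4 (0.104) and Hpdl without obese 2, 4 or 5 or weight loss 1, 2, 3 or 4 or lean 2, 4 or 5 (0.143).

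Across all 68 lists, 30 held no edgeR call, and 172 of the 246 called genes belonged to none of them. The lists with the lowest medians were mitosis (-1.13), acute-phase proteins (-0.77), cholesterol synthesis (-0.66) and collagen chains (-0.65), apart from the epididymis markers. Those with the highest were the Y-linked genes (0.51), clock output factors (0.49) and core clock genes (0.36). The Y-linked list has 4 genes and no call. Its sums were 131, 119, 281 and 98.6 CPM in weight loss 1 to 4 and 103 to 130 CPM in the obese libraries, so weight loss 3 alone stood apart. Lists of interferon response, interleukins and their receptors, antigen presentation, cytosolic ribosomal proteins, ER folding, immediate early genes and nuclear receptors held no call, with medians of -0.02, -0.01, -0.08, -0.09, -0.14, 0.02 and 0.30. Summed over these 7 lists, 15 of 167 members had an unadjusted p under 0.05, DESeq2 called 1 higher and 1 lower, and limma-voom with quality weights called 2 higher and 1 lower.

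**Figure D5:**
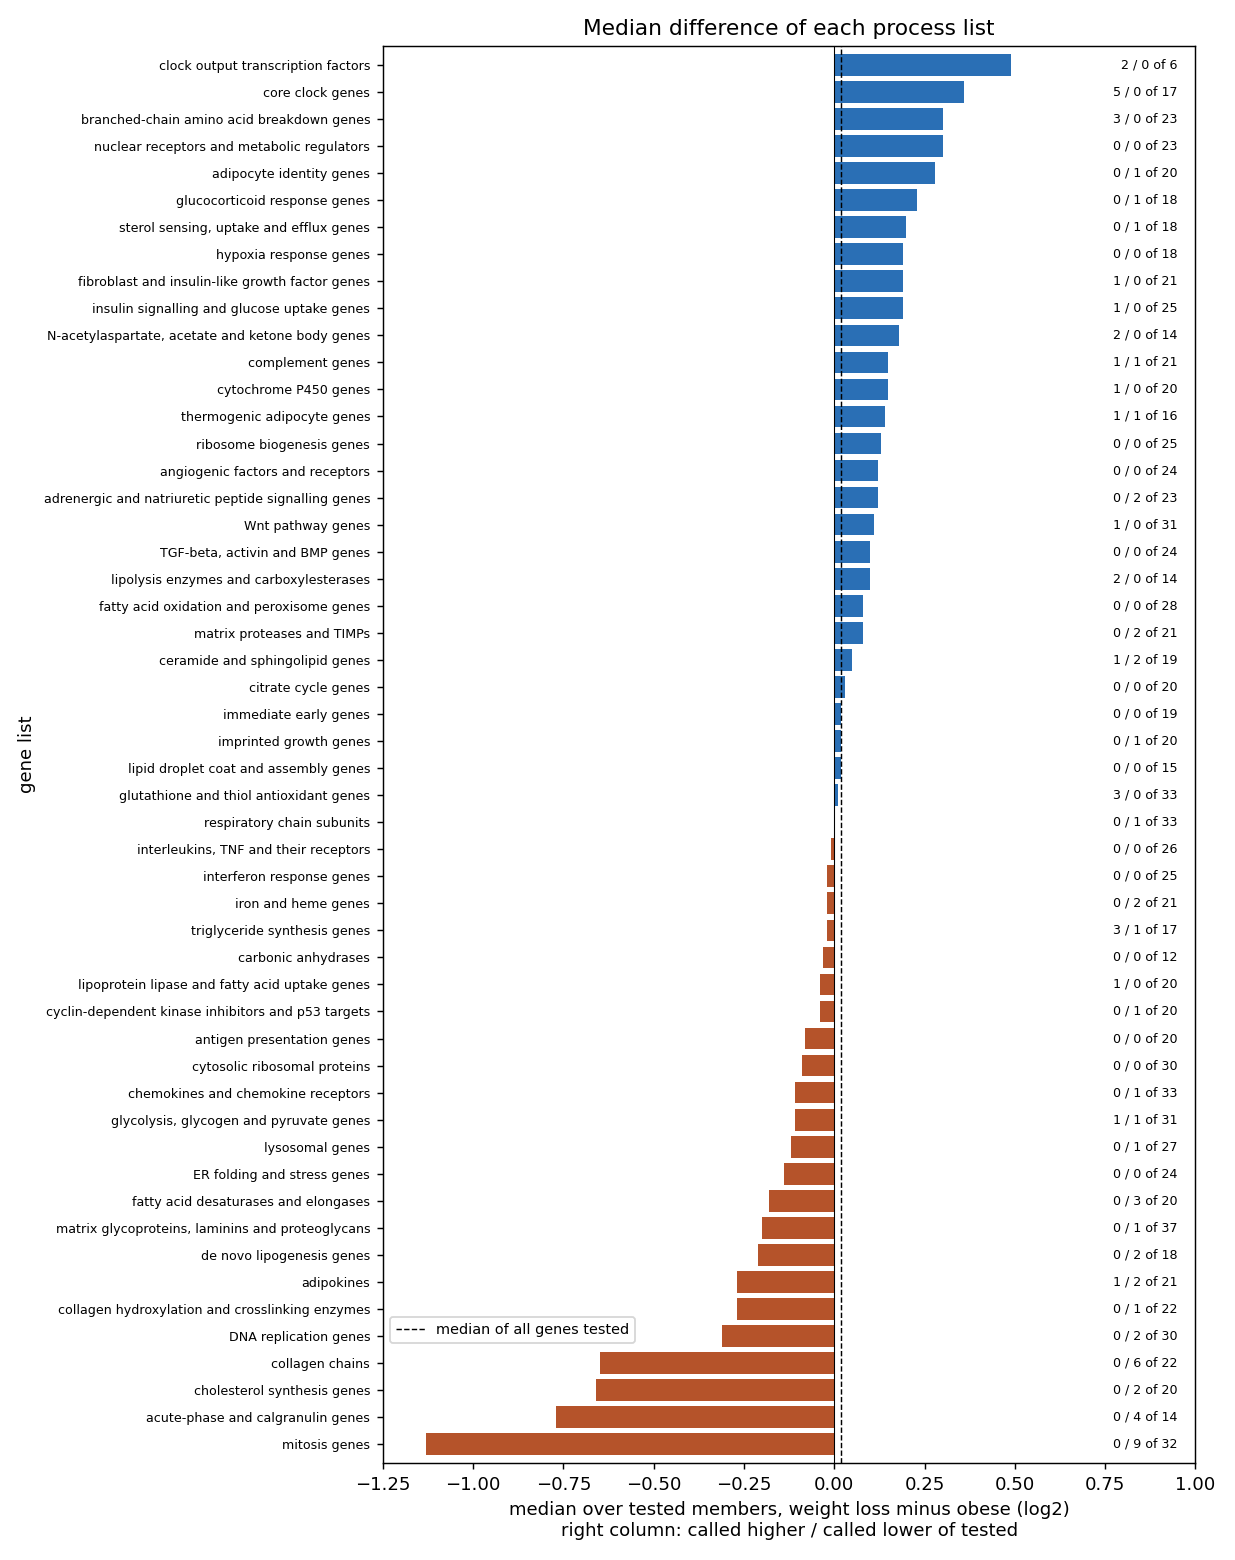
Bars give the median log2 difference over the tested members of each of 52 process lists (horizontal axis), and the right column gives members called higher, called lower and tested. The dashed line marks the median of all genes tested, 0.02; mitosis, acute-phase, cholesterol synthesis and collagen lists lie farthest below it and the clock lists farthest above.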

How the data were processed

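Polyadenylated RNA from 15 samples of mouse perigonadal fat was sequenced. The authors deposited 1 table of expected counts per Entrez gene ID, of which 34.8% of the values were not whole, and these were rounded to whole numbers. The build is mm10 per the submitters' processing notes; an aligner, a counter and a strand setting were not given in the sources used here. The table had 36172 lines and 35794 IDs; symbols came from RefSeq for 32919 and from GENCODE for 24, and 2851 had none. No column lacked a sample. Some listed genes had 0 CPM in all 9 obese and weight loss libraries, among them Agpat2, Xbp1, Selenos, Acta2, H2-DMa and Cers2. They could not be compared, and why they had no counts was not tested. Weight loss replicate 5 (230 counts) was left out by a minimum of 1000000 counts.

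Genes passing edgeR's filterByExpr (15208) were fitted with edgeR 4.0.16 in R 4.3.3: TMM factors, 1 model over obese, weight loss and lean, quasi-likelihood test of weight loss minus obese, Benjamini-Hochberg adjustment over all genes, threshold 0.05. The standard error of a log2 difference is its size divided by the square root of F. The procedure was run on simulated counts with the same expected level in every library, apart from changes set in the weight loss group. The simulation had no epididymis transcripts confined to some libraries, so it cannot show their effect on the calls. DESeq2 1.42.0, limma 3.58.1, other scalings, filters, dispersions, a replicate block, omission of each library and 2 treatments of epididymis transcripts were alternatives. Single-gene permutation tests were exact and two-sided.

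Named genes were the 12 largest folds in each direction at an average log2 CPM of at least 1, the 12 smallest p-values, the 8 most abundant called genes and up to 4 called genes of each list, plus 13 genes fixed by name and, from marker lists of other cells, the member with the highest level. Further genes in the text, among them other list members, were picked after their values were seen. Members and lists were chosen with earlier results of these data known. Samples were grouped by their labels. Promoters are RefSeq's, GRCm38.p6. Some genes are not reported here.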

Additional observations from a re-analysis of the deposited data

Results flagged for a closer look

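Among the 230 sets of libraries checked, 10 had 1 library far from the rest of its group; chance gives about 1 in 20 such sets. In the weight loss group Prtn3 stood at 58.6 CPM in replicate 4, against 32.2 to 35.5 in the others. Cryab stood at 162.6 CPM in weight loss 2, against 104.7 to 108.4. Podn was low in weight loss 3, at 212.8 CPM against 242.8 to 248.0. Tagln, a smooth muscle marker that was not called, stood at 390.4 CPM in weight loss 4, against 181.5 to 211.9. In the obese group Gpx3 stood at 1515 CPM in replicate 4, against 883 to 1025 in the others, and C2 was low in that library, at 123.5 CPM against 162.5 to 178.4. Dbp stood at 236.7 CPM in obese 5, against 117.3 to 149.3. Cdkn1a was low in obese 2, at 62.24 CPM against 87.4 to 97.5. Col4a2 stood at 1184 CPM in obese 1, against 958 to 980.4, and Serpinh1 at 903.8 CPM in obese 3, against 696 to 746.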

How the results depend on the processing

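The main count of 246 called genes rose to 691 in DESeq2, to 320 in edgeR's newer quasi-likelihood method, to 308 in limma-voom and to 524 once sample quality weights were added to it; it was 84 at an adjusted p of 0.01. It was 20 without the 4 epididymis-rich libraries, which leaves 2 obese libraries, and 37 when the mean log2 level of epididymis markers entered the model. With 1 library left out it ranged from 141 (without weight loss 3, and also without obese 4) to 265 (without lean 1), and was 143 without obese 3 and 152 without obese 5. The other planned scalings, filters, dispersions and the fit of the 2 groups alone gave 189 to 256. Weight loss replicate 5 included, an alternative chosen after seeing the data, gave 181. With the replicate number as a replicate block it was 172; same-numbered libraries deviated together with correlations of 0.32, 0.05, -0.13 and 0.08 and only replicate 1 correlated best with its own number, so the numbers are not taken to pair the samples. Of 120 named genes 79 lost their call without the epididymis-rich libraries, 65 with the covariate, 22 with the block and up to 34 with 1 library left out. The 120 include most of the genes fixed by name and the most abundant markers of other cells, which were not called in the main fit. These had no call to lose, so shares of 120 understate the losses. The Crispld2 permutation p was 0.0159 on library totals (exact, two-sided). With 1 library left out it was 0.0286 for each obese library and 0.0179 for each weight loss library. Leaving out a library cannot make groups overlap that did not, so these p-values were largely fixed by the group sizes and are no check. Genes whose sign turned were all uncalled, and the cause was not tested. With sample quality weights Trem2 was -0.057, Cma1 -0.351 and Slpi -0.101 on the log2 scale. With limma-voom Tagln was 0.01, and with the covariate 0.543. Without the epididymis-rich libraries Itgax was 0.099, Tnf 0.153, Cma1 -0.085 and Hba-a1 -0.107. With 1 library left out, log2 differences ranged from -0.11 to 0.059 for Scd1, -0.468 to 0.121 for Adgre1, -0.436 to 0.203 for Cd68, -0.391 to 0.266 for Itgax, -0.147 to 0.021 for Foxp3, -0.15 to 0.471 for Cma1, -0.322 to 0.063 for Batf3, -0.039 to 0.274 for Slpi, -0.327 to 0.095 for Cldn5, -0.387 to 0.177 for Tagln and -0.031 to 0.257 for Hba-a1. Genes at a few CPM, such as Slc5a7 and Mogat2 after weight loss, rest on few reads and have the larger errors.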

Other observations

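Weight loss replicate 3 stood apart in transcripts of the Y chromosome. Ddx3y was at 181.3 CPM in that library, against 57.7 to 86.8 CPM in the other 8 obese and weight loss libraries, Uty at 22.0 CPM against 4.50 to 9.46, and Eif2s3y at 67.4 CPM against 29.2 to 44.4. Kdm5d was at 10.7 CPM against 4.34 to 9.76. Xist stayed below 1 CPM in all 14 libraries.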
